A study of Mus musculus with 25 samples.

Results

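The CD200 receptor family of the mouse was described in G1-ILCs, the group 1 innate lymphoid cells, sorted from several organs. They comprise NK (natural killer) cells, which recirculate in blood, and ILC1s (type 1 ILCs), which settle in organs. The family was taken as the 5 genes *Cd200r1*, *Cd200r2*, *Cd200r3*, *Cd200r4* and *Cd200* of 46078 counted genes, found by matching Ensembl identifiers to these symbols, and all 5 matched. The family was chosen by its RNA levels in ILC1s and NK cells of these data, so that difference is given below as a description without a test. RNA was measured by bulk sequencing in 25 libraries of 8 groups from wild-type C57BL/6 mice without further treatment, all sorted as CD3- NK1.1+ NKp46+ cells.

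From fetal liver (FL) at E18.5 came FL G1-ILCs (4 libraries), which had intermediate CD49a and CD49b. Adult liver (AL) of 8-week-old mice gave AL 7R- ILC1s (4) and AL 7R+ ILC1s (3), both CD49a+ CD49b lo and parted by the IL-7 receptor, and AL NK cells (2), CD49a- CD49b+. Bone marrow (BM) of mice of that age gave immature ILC1s (BM iILC1s, 3 libraries), CD49a+ CD49b lo, and BM NK cells (3), CD49a- CD49b+. The small intestinal lamina propria gave LPL ILC1s (4), sorted as CD27+ IL-7R+, and the salivary gland gave SG G1-ILCs (2), which were CD49a+ CD49b+ and were not divided into ILC1s and NK cells. Adults were again 8 weeks old.

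CD200 is a membrane glycoprotein on many lymphoid, endothelial and neuronal cells, and its receptor CD200R1 is best known as an inhibitory receptor of myeloid cells. CD200R1 has no classical inhibitory tyrosine motif. It recruits the adaptors DOK2 and DOK1 and through them the Ras GTPase activator RASA1, which dampens Ras and MAP kinase signalling. The related receptors encoded by *Cd200r2*, *Cd200r3* and *Cd200r4* have short cytoplasmic tails and pair with the activating adaptor DAP12, the product of *Tyrobp*, and surface CD200R is widely used to mark liver ILC1s.

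The 4 receptor genes lie side by side on the plus strand of chromosome 16 in GRCm38, the build named mm10 in the processing notes, with positions from GENCODE vM21. *Cd200r1* (ENSMUSG00000022667) spans chr16:44765736-44794978, *Cd200r4* (ENSMUSG00000062082) chr16:44811733-44839150, *Cd200r2* (ENSMUSG00000090176) chr16:44867097-44915840 and *Cd200r3* (ENSMUSG00000036172) chr16:44943678-44981380. *Cd200* (ENSMUSG00000022661), the ligand gene, is farther along on the minus strand at chr16:45382135-45409053. The coding sequences of *Cd200r2* and *Cd200r4* were the most alike of the receptor pairs, with 89.8% identity in alignment, against 83.6% for *Cd200r1* and *Cd200r4*, 80.7% for *Cd200r1* and *Cd200r2* and 62.7 to 73.9% for the pairs with *Cd200r3*. This likeness is shown by 60 coding bases in exon 4 of each gene, in which 51 positions were identical in all 4 genes and capitals mark the bases that differ from *Cd200r1*.
Cd200r1, chr16:44790020-44790079: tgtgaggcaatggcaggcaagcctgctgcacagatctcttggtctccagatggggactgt
Cd200r2, chr16:44909521-44909580: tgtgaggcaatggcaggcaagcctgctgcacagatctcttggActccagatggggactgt
Cd200r4, chr16:44833331-44833390: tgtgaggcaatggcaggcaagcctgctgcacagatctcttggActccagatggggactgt
Cd200r3, chr16:44954139-44954198: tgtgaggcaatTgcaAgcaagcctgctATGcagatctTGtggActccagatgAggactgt

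*Cd200r2* and *Cd200r4* were thus the same over these 60 bases, and a read that lies within them cannot be assigned between the pair by its letters. Over the whole exonic sequence, the share of 75-base windows that also occur exactly in another of the 4 genes was 0.401% in *Cd200r1*, 2.15% in *Cd200r2*, 2.45% in *Cd200r4* and 0 in *Cd200r3*. No window of 150 bases was shared, which is the length of the paired-end reads in the study's methods. Reads cut shorter by trimming can still fall in a shared stretch. How the authors counted reads that fit several places is not given in the sources used here, so a small part of the counts may be split or lost among these paralogs.

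The promoters of *Cd200r2* and *Cd200r4* differed more than their coding sequences, with 59.2% against 89.8% identity. For *Cd200r4* and *Cd200r3* it was the other way round, with 82.2% against 72.1%. In RefSeq's table of 300-base promoters on GRCm38.p6, 4 of the 5 genes matched, and *Cd200r1* was not among them. The promoters of *Cd200r2* and *Cd200r4* are shown because these 2 genes, alike in coding sequence, were distributed differently across the groups. Capitals mark a T-box core (TCACACC or GGTGTGA) or a RUNX core (TGTGGT or ACCACA) on either strand.
Cd200r2, chr16:44866847-44867146, plus strand: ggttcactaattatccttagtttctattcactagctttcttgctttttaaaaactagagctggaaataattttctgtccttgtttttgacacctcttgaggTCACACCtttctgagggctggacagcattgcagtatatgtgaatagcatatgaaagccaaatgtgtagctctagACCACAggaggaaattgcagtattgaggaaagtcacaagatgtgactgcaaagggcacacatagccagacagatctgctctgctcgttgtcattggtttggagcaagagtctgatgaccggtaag
Cd200r4, chr16:44820478-44820777, plus strand: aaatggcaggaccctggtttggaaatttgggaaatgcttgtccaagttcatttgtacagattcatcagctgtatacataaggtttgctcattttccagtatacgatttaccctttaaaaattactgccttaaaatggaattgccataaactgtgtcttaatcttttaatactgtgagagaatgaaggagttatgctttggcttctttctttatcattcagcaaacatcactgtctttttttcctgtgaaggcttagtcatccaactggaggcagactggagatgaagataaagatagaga

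The *Cd200r2* window held both cores, and the other 3 windows held neither. Over all 32851 promoters of the table, 3.98% held the T-box core and 16.8% the RUNX core, so each match is a description of letters and not a site. The start that RefSeq gives *Cd200r4* lies inside the GENCODE gene and not at its first base. The promoters of *Cd200r4* and *Cd200r3* were 82.2% identical with a common run of 32 bases, while the other 5 pairs ranged from 59.2 to 63.0% with runs of 8 or 9 bases.

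Libraries held 2302643 to 7995906 counts (median 4603579). FL replicates 2 and 3 differed about as little as sampling noise allows (chi-square per degree of freedom 1.18, against 3.51 to 12.4 in the other 28 replicate pairs). They were added up as 1 sample, which leaves 24 samples and n = 3 for FL G1-ILCs, although the study calls its libraries biological replicates. *Itga1*, which encodes the sort marker CD49a, followed the labels, with 0.479 to 6.13 CPM (read counts scaled to library size) in NK cell samples and 76.1 to 736 in the 6 other groups. *Eomes*, an NK cell factor, was 467 to 525 CPM in NK cells and 0 to 5.64 in AL ILC1s, but 191 to 208 in SG G1-ILCs, 23.1 to 111 in LPL ILC1s, 29.3 to 45.9 in BM iILC1s and 24.5 to 34.6 in FL G1-ILCs. The sources used here do not say whether each library came from 1 animal or from a pool, so p-values measure the spread between these samples. In bulk RNA fewer cells of a type and less RNA per cell cannot be told apart.

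Levels are given in CPM after TMM scaling, as mean ± SD over samples. The 3 receptors *Cd200r1*, *Cd200r2* and *Cd200r4* were well covered, with 11665, 14562 and 15723 counts in all. *Cd200r3* had 260 counts in 23 of the 25 libraries and *Cd200* had 37 in 15. A filter on low counts left 14123 genes and 4 of the 5 members, and *Cd200* did not pass. *Cd200r3* had 8 samples at or above the limit of the filter (2.16 CPM before TMM scaling, needed in 2 samples), of which 4 were AL 7R- and 2 were LPL ILC1s, and it passed with any 1 group left out.

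*Cd200r1*, the inhibitory receptor gene, was highest in adult liver ILC1s and close to absent from NK cells. The 4 samples of AL 7R- ILC1s were at 202, 217, 218 and 268 CPM (226 ± 29.1, n = 4). Those of AL 7R+ ILC1s were at 171, 176 and 188 (178 ± 8.66, n = 3). Every 7R- sample lay above every 7R+ sample. FL G1-ILCs followed at 77.8, 97.4 and 104 CPM (92.9 ± 13.5, n = 3), where 97.4 is the summed pair. LPL ILC1s were at 59.6, 70.3, 79.3 and 83.7 (73.2 ± 10.7, n = 4), and BM iILC1s at 46.3, 65.7 and 73.7 (61.9 ± 14.1, n = 3). All FL samples lay above all BM samples, while LPL samples overlapped with both. SG G1-ILCs were lower and apart from all of them, at 15.8 and 21.7 CPM (18.8 ± 4.20, n = 2). BM NK cells had 2.50, 2.83 and 3.01 CPM (2.78 ± 0.259, n = 3) and AL NK cells 0.722 and 1.20 (0.960 ± 0.337, n = 2). The 2 NK cell groups overlapped with no other group and not with each other.

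*Cd200r2*, an activating member, had the same order of group means over a wider range. In AL 7R- ILC1s it reached 312, 346, 375 and 382 CPM (354 ± 31.6, n = 4), the highest level of any member in any group. AL 7R+ ILC1s held 202, 202 and 251 (218 ± 28.3, n = 3). FL G1-ILCs were at 78.6, 106 and 109 CPM (97.9 ± 16.8, n = 3). LPL ILC1s were at 50.4, 53.7, 59.9 and 76.5 (60.1 ± 11.6, n = 4), BM iILC1s at 41.4, 47.7 and 49.9 (46.3 ± 4.40, n = 3) and SG G1-ILCs at 4.79 and 5.05 (4.92 ± 0.183, n = 2). No 2 neighbours in this order overlapped until the NK cells. BM NK cells had 0.354, 0.405 and 1.83 CPM and AL NK cells 0 and 1.26, which overlapped.

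*Cd200r4*, the closest paralog of *Cd200r2*, was the one receptor with a substantial level in all 8 groups. AL 7R- ILC1s were highest with 187, 201, 226 and 235 CPM (212 ± 22.2, n = 4), then FL G1-ILCs with 169, 176 and 178 (174 ± 4.89, n = 3) and AL 7R+ ILC1s with 132, 155 and 165 (151 ± 17.2, n = 3). These 3 groups did not overlap. LPL ILC1s spread from 82.9 through 85.4 and 103 to 156 CPM (107 ± 34.0, n = 4). BM iILC1s held 78.3, 94.4 and 96.1 (89.6 ± 9.84, n = 3), AL NK cells 81.3 and 92.0 (86.6 ± 7.58, n = 2), BM NK cells 62.9, 84.0 and 95.9 (80.9 ± 16.7, n = 3) and SG G1-ILCs 53.1 and 64.3 (58.7 ± 7.94, n = 2). From AL 7R+ ILC1s downward each group overlapped with the next, so marrow ILC1s and both NK cell groups were not separated by this gene.

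*Cd200r3*, a receptor gene known from basophils and mast cells, was low throughout. AL 7R- ILC1s had 5.03, 5.93, 6.07 and 9.94 CPM (6.74 ± 2.18, n = 4), above every other sample. LPL ILC1s ranged from 0.508 to 4.30 (2.21 ± 1.73, n = 4), FL G1-ILCs from 1.74 to 2.43 (2.02 ± 0.367, n = 3), AL 7R+ ILC1s from 1.73 to 2.06 (1.85 ± 0.184, n = 3) and BM iILC1s from 0.393 to 1.80 (1.12 ± 0.704, n = 3). BM NK cells were at 0.177 to 0.500, and SG G1-ILCs and AL NK cells had 1 count each over 2 libraries. All neighbours below AL 7R- ILC1s overlapped. The 11 listed basophil and mast cell markers summed to 6.21 to 9.05 CPM in AL 7R- ILC1s, where 10 of them had a count and *Tpsb2* was at 0. The sum was 3.71 to 8.41 in the 7R+ samples and 23.6 to 34.4 in LPL ILC1s. Single markers did not all go the same way. *Mcpt8*, a basophil protease gene, was at 1.06 ± 1.26 CPM in AL 7R- and 0.525 ± 0.464 in AL 7R+ ILC1s, and at 0 in SG G1-ILCs. *Hdc*, also on the list, was at 1.00 ± 0.432 CPM in AL 7R- and 1.63 ± 0.858 in AL 7R+ ILC1s. In LPL ILC1s *Hdc* was at 18.8 CPM and *Mcpt8* at 0.269. The part of such cells in the *Cd200r3* level was not tested.

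**Figure D1:**
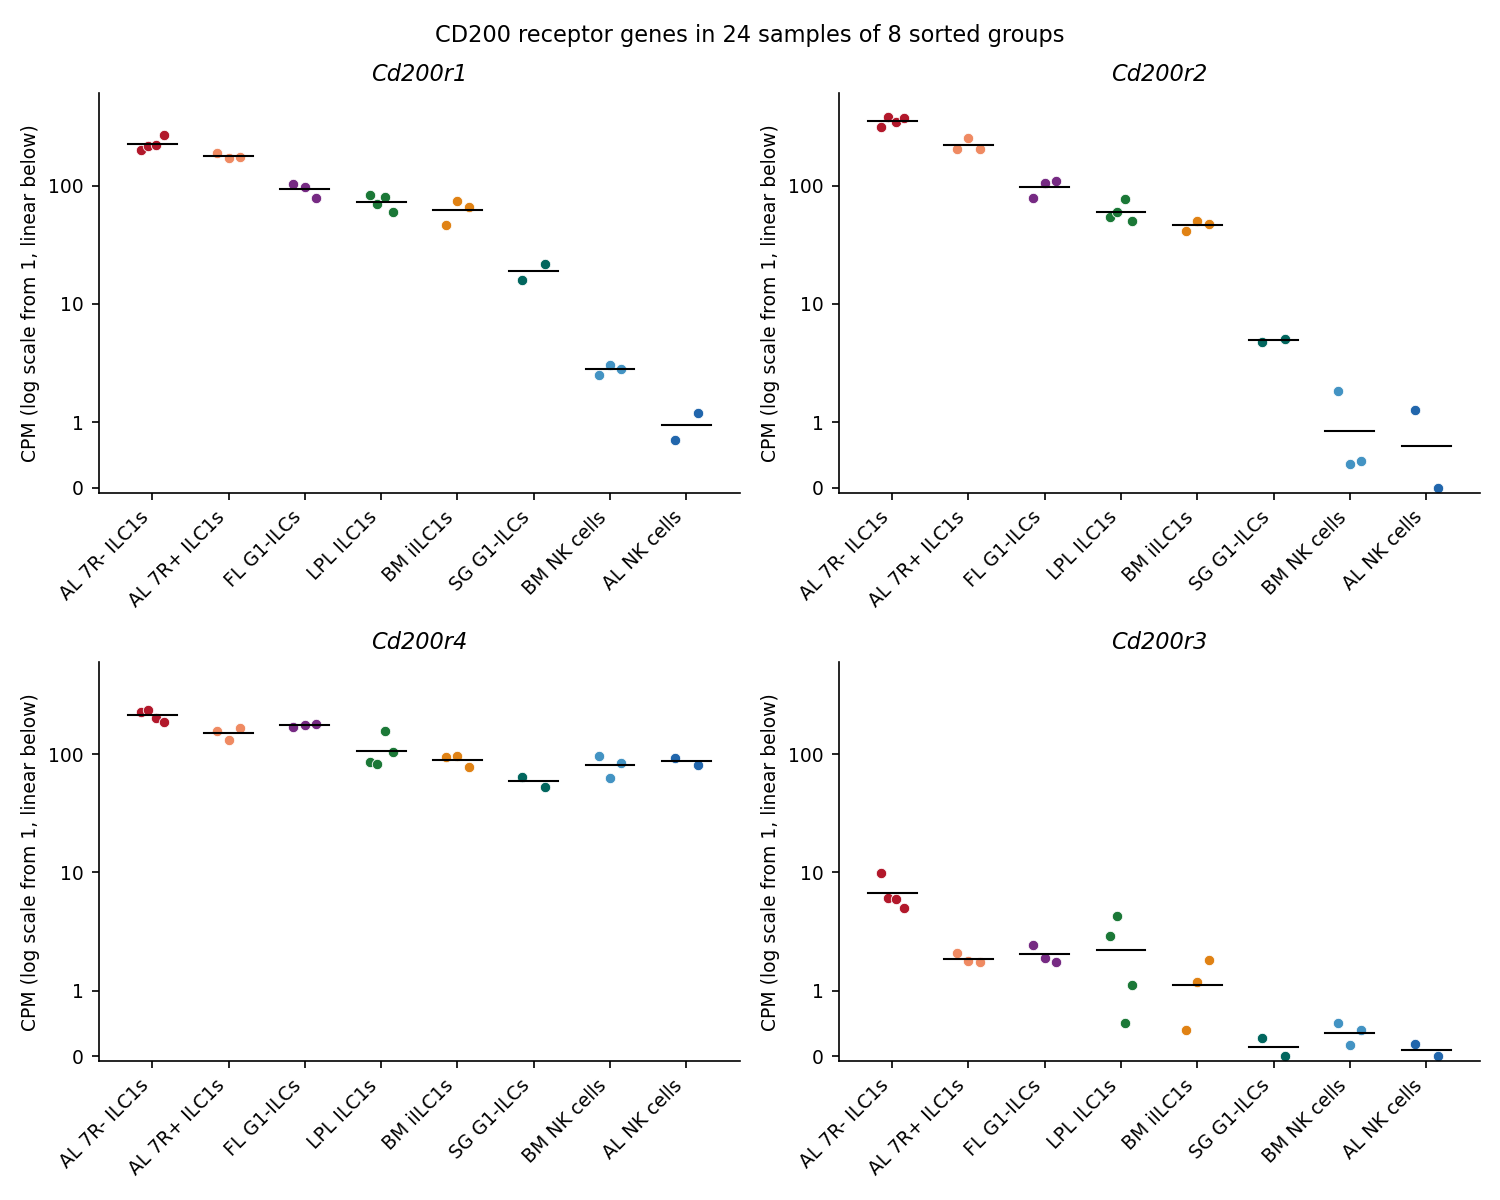
CPM of the 4 receptor genes in 24 samples of 8 sorted groups (y axis, logarithmic from 1 and linear below; points, samples; lines, group means). *Cd200r1* and *Cd200r2* fall from over 170 CPM in adult liver ILC1s to under 4 in NK cells, whereas *Cd200r4* stays between 53.1 and 235 CPM in every sample.

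*Cd200*, the ligand gene, was at the edge of detection. Group means ran from 0 in FL G1-ILCs, where 3 counts over the group would equal 0.178 CPM, through 0.0362 CPM in AL 7R- ILC1s to 0.720 in BM iILC1s. Of the 37 counts, 11 came from BM iILC1s replicate 1 (2.16 CPM). At this depth no difference in *Cd200* between groups could be read.

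Set against AL NK cells, the size of the receptor differences can be described without a test. The log2 fold change of *Cd200r1* was 7.89 for AL 7R-, 7.55 for AL 7R+ and 6.61 for the fetal cells. *Cd200r2* had 7 counts in AL NK cells, all in replicate 1, so its size is uncertain: the ratio of pooled levels was 493 for AL 7R- (exact 95% interval 239 to 1226), 297 for AL 7R+ (144 to 739) and 136 for FL cells (66.0 to 339), and without replicate 1 the AL NK level was 0. *Cd200r4* was higher by 1.29, 0.80 and 1.01 on the log2 scale. In marrow, BM iILC1s exceeded BM NK cells by 4.47 for *Cd200r1*, while *Cd200r4* differed by 0.15 and its samples overlapped. *Cd200r2* had 15 counts in BM NK cells, 11 of them in replicate 1, for a ratio of 51.2 (30.9 to 92.0), and without that replicate the BM NK level went from 0.864 to 0.378 CPM. *Cd200r3* had 1 count in AL NK cells, which gives a ratio of 63.8 for AL 7R- ILC1s (exact 95% interval 11.3 to 2540), 19.6 for FL G1-ILCs (3.29 to 796) and 17.8 for AL 7R+ ILC1s (2.97 to 722). These intervals cover counting error only. The 3 liver comparisons share the 2 AL NK cell libraries.

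The mix of receptor transcripts therefore changed across groups, as a description of the same levels. After division by exonic length (3348 bases in *Cd200r1*, 1750 in *Cd200r2*, 2045 in *Cd200r4* and 5984 in *Cd200r3*), *Cd200r4* made up 98.5 ± 0.857% of receptor reads per kb in liver NK cells and 96.6 ± 0.590% in marrow NK cells. SG G1-ILCs had a share of 77.1 ± 5.15%, FL G1-ILCs 50.4 ± 1.52%, BM iILC1s 49.3 ± 5.29% and LPL ILC1s 47.4 ± 5.89%. In the adult liver it was 29.3 ± 3.98% for 7R+ and 27.8 ± 3.27% for 7R- cells, and *Cd200r2* was there the most abundant receptor per length, with 49.4 ± 5.11% and 53.9 ± 2.03%. The share of *Cd200r1* kept within 15.2 to 21.2% as the mean of each of the 6 groups other than NK cells, and that of *Cd200r3* did not exceed 0.373% as a group mean. Counted directly, *Cd200r2* reads per *Cd200r1* read were 1.57 ± 0.150 for AL 7R- and 1.23 ± 0.207 for AL 7R+ ILC1s, 1.08 ± 0.323 for FL G1-ILCs, 0.826 ± 0.135 for LPL ILC1s, 0.766 ± 0.114 for BM iILC1s and 0.268 ± 0.0502 for SG G1-ILCs.

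**Figure D2:**
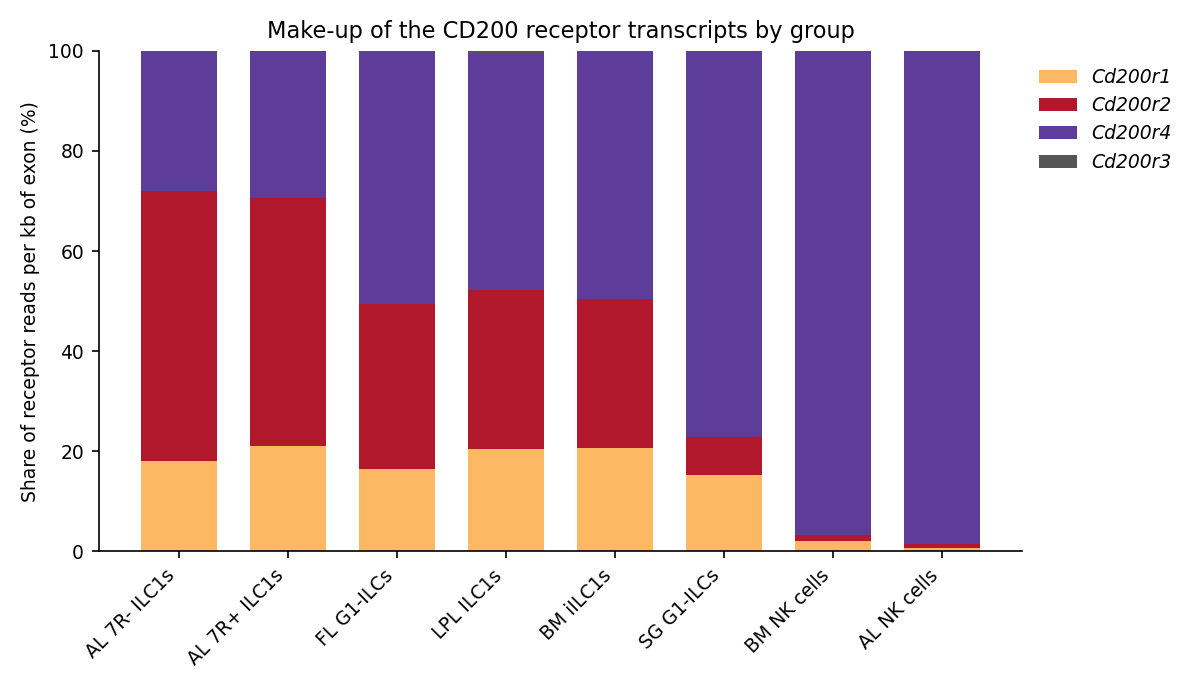
Mean share of each receptor gene in the summed reads per kb of exon of the 4 receptors (y axis, %; stacked bars, 8 groups). *Cd200r4* fills 98.5% of the bar in AL NK cells and 27.8% in AL 7R- ILC1s, where *Cd200r2* takes 53.9%, and *Cd200r3*, with a mean of at most 0.373% (LPL ILC1s), is barely visible at the top.

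Among ILC groups, and between the NK cell groups, members were tested in 7 comparisons with edgeR's quasi-likelihood test, fitted over all 14123 genes and adjusted over all of them. The family was chosen with levels of these same libraries known. The adjusted p-values of members, and the shares of all genes set beside their calls, are therefore not independent of that choice. The median log2 fold change of all genes lay between -0.06 and 0.03 in the 11 comparisons of this report. The 3 genes *Cd200r1*, *Cd200r2* and *Cd200r4* shared a direction in each of the 6 comparisons of ILC groups, but the size of the change and the calls differed.

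Within the adult liver, the question was whether the IL-7R+ and IL-7R- subsets differ. *Cd200r2* was lower in AL 7R+ ILC1s (log2 fold change -0.70, SE 0.17, adjusted p = 0.0108 by edgeR's quasi-likelihood test). It did not pass without AL 7R+ replicate 1 (-0.65, adjusted p = 0.0669) or replicate 3 (-0.64, adjusted p = 0.0758). *Cd200r1* had -0.34 (SE 0.14, adjusted p = 0.215), *Cd200r4* -0.49 (SE 0.16, adjusted p = 0.0884) and *Cd200r3* -1.85 (SE 0.61, adjusted p = 0.0814), although no samples of the 2 subsets overlapped in these genes. Thus 1 of 4 tested members passed, where 5.28% of all genes did, 3.06% higher and 2.22% lower. *Cd200r4* passed in fits of fewer groups (adjusted p = 0.0140 with only the 2 groups), with no filter (0.0447) and without LPL replicate 3 (0.0186), and *Cd200r3* passed by DESeq2 (0.0379). The 15 listed myeloid markers moved in this direction too, at 509 to 615 CPM summed in the 7R- samples and 197 to 255 in the 7R+ samples. Of these 15, 14 had a count in 7R- and 11 in 7R+ cells, and *S100a9* was at 0 in both. NK cell markers summed to 105 to 139 CPM in 7R- and 47.2 to 69.1 in 7R+ samples, and parenchymal and epithelial markers to 43.0 to 81.0 and 13.8 to 21.0. Erythroid markers reached 161 and 414 CPM in 7R- replicates 2 and 3 and at most 1.77 in the 7R+ samples. The part of such cells in the receptor levels was not tested.

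FL G1-ILCs were compared with AL 7R- ILC1s, as fetal and adult cells of the liver that lack the IL-7 receptor. *Cd200r1* was lower in FL G1-ILCs by 1.28 on the log2 scale (-1.28, SE 0.15, adjusted p = 8.87e-08) and *Cd200r2* by 1.85 (-1.85, SE 0.18, adjusted p = 3.64e-09), both by edgeR's quasi-likelihood test. For *Cd200r4* the change was -0.29 (SE 0.16, adjusted p = 0.167), which passed only in the fit of these 2 groups (adjusted p = 0.0235). *Cd200r3* was lower by 1.72 (-1.72, SE 0.60, adjusted p = 0.0223) but was lost without AL 7R- replicate 1 (-1.54, adjusted p = 0.0594) or FL replicate 4 (-1.63, adjusted p = 0.0731), and with no filter (-1.69, adjusted p = 0.103). So 2 of the 3 well-covered receptors were lower, both without any 1 library too, where 42.6% of all genes changed, 22.4% higher and 20.1% lower. Age and the state of the organ cannot be told apart here. Myeloid markers summed to 138 to 328 CPM in the fetal samples and 509 to 615 in the adult ones, and parenchymal and epithelial markers to 13.8 to 18.7 and 43.0 to 81.0, and their part was not tested.

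AL 7R+ ILC1s exceeded BM iILC1s, which also carry the IL-7 receptor, in 3 of 4 members, where 8.06% of genes changed, 3.84% higher and 4.23% lower. *Cd200r2* was higher by 2.23 (SE 0.19, adjusted p = 7.27e-09), *Cd200r1* by 1.53 (SE 0.16, adjusted p = 1.61e-07) and *Cd200r4* by 0.75 (SE 0.18, adjusted p = 0.00672) in edgeR's quasi-likelihood test. *Cd200r3* had 0.71 (SE 0.68, adjusted p = 0.668) with overlapping samples. All 3 calls held without any 1 library. Myeloid markers summed to 259.7 to 1544 CPM in BM iILC1s, with replicate 2 highest, and that sample was the highest of its group in all 3 of these genes. NK cell markers summed to 434 to 597 CPM in BM iILC1s and 47.2 to 69.1 in AL 7R+ ILC1s. The part of such cells was not tested.

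LPL ILC1s and AL 7R+ ILC1s are IL-7R+ cells of gut and liver. *Cd200r1* was lower in LPL ILC1s with -1.28 (SE 0.15, adjusted p = 4.72e-08), *Cd200r2* with -1.85 (SE 0.18, adjusted p = 1.52e-09) and *Cd200r4* with -0.49 (SE 0.17, adjusted p = 0.0150) by edgeR's quasi-likelihood test. The *Cd200r4* samples overlapped, and the call was lost without AL 7R+ replicate 3 (-0.42, adjusted p = 0.0704), LPL replicate 1 (-0.39, adjusted p = 0.0627) or LPL replicate 2 (-0.39, adjusted p = 0.0614) and in the fit of the 2 groups alone (-0.47, adjusted p = 0.0567). For *Cd200r3* the value was 0.24 (SE 0.62, adjusted p = 0.766) and became -0.30 without LPL replicate 2. These 3 of 4 members stood beside 51% of all genes that changed, 24.8% higher and 26.2% lower, so a call was common in this comparison. Markers of ILC2s and ILC3s summed to 809 to 989 CPM in LPL ILC1s and 253 to 262 in the liver cells, and NK cell markers to 108 to 255 and 47.2 to 69.1. Their part was not tested.

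SG G1-ILCs were the lowest of the non-NK groups in every receptor. Against AL 7R- ILC1s, the 3 well-covered receptors were lower, where 32.4% of all genes changed, 17.8% higher and 14.6% lower. The log2 fold changes were -6.16 for *Cd200r2* (SE 0.31, adjusted p = 7.58e-15), -3.58 for *Cd200r1* (SE 0.21, adjusted p = 2.53e-13) and -1.86 for *Cd200r4* (SE 0.21, adjusted p = 7.18e-08) in edgeR's quasi-likelihood test. *Cd200r3* had 137 counts against 1, a ratio of 49.3 (exact 95% interval 8.70 to 1962, adjusted p = 2.39e-04). NK cell markers summed to 105 to 139 CPM in AL 7R- ILC1s and 1894 to 2009 in SG G1-ILCs, and their part was not tested. SG G1-ILCs were not divided into ILC1s and NK cells. This comparison, and that with LPL ILC1s, may thus repeat part of the difference by which the family was chosen. Their adjusted p-values therefore add no independent support to the receptor differences.

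Against LPL ILC1s, SG G1-ILCs were also lower in these 3 receptors, where 35.5% of genes changed, 18.7% higher and 16.8% lower. *Cd200r2* had -3.60 (SE 0.31, adjusted p = 4.38e-10), *Cd200r1* -1.96 (SE 0.21, adjusted p = 1.90e-08) and *Cd200r4* -0.87 (SE 0.20, adjusted p = 0.00146) by edgeR's quasi-likelihood test. *Cd200r4* was lost without SG replicate 2 (-0.71, adjusted p = 0.0608). *Cd200r3* (adjusted p = 0.00866) had 31 counts against 1, a ratio of 16.1 (exact 95% interval 2.68 to 656), and was lost without SG replicate 2 (adjusted p = 0.130) and in the fit of the 2 groups (adjusted p = 0.0542). Myeloid markers summed to 1535 to 1668 CPM in SG G1-ILCs, above all groups in mean, and NK cell markers were again higher than in LPL ILC1s (108 to 255 CPM). Their part was not tested. SG G1-ILCs were sorted without a division into ILC1s and NK cells, so the receptor level of SG ILC1s alone was not measured.

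Between BM NK cells and AL NK cells no member was called by edgeR's quasi-likelihood test or by DESeq2 (1 of 4 at an unadjusted p under 0.05), where 2.58% of genes were, 1.01% higher and 1.57% lower. *Cd200r1* was at 2.78 ± 0.259 CPM in the marrow and 0.960 ± 0.337 in the liver, which is 1.55 on the log2 scale (SE 0.48, adjusted p = 0.0866 by edgeR's quasi-likelihood test). *Cd200r4* had -0.10 (SE 0.20, adjusted p = 0.884), *Cd200r2* 0.32 (SE 0.78, adjusted p = 0.907) and *Cd200r3* 1.61 (SE 1.27, adjusted p = 0.630). Only *Cd200r1* had samples that did not overlap.

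**Figure D3:**
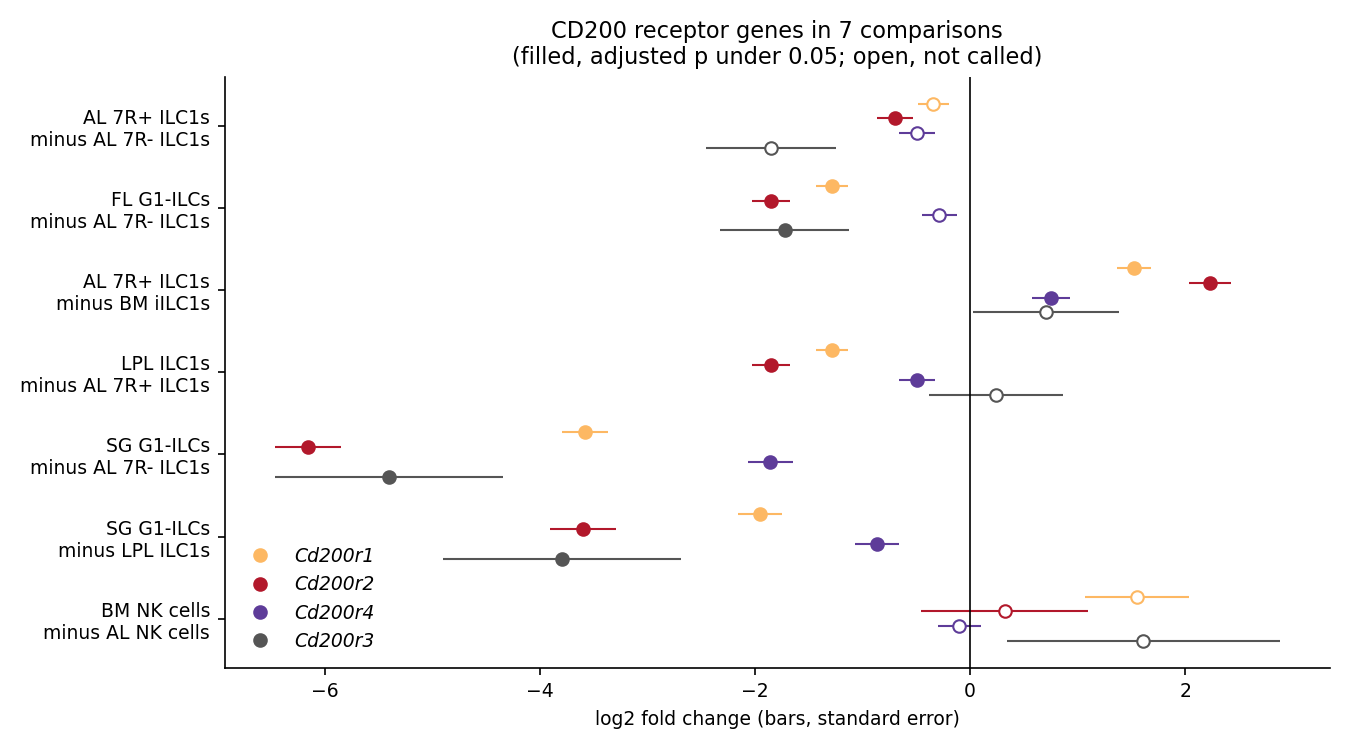
log2 fold changes of the 4 receptor genes (x axis; bars, SE) in 7 comparisons (y axis), filled where the adjusted p of edgeR's quasi-likelihood test was under 0.05. *Cd200r2* has the largest change among the well-covered receptors in the 6 comparisons of ILC groups, reaching -6.16 in SG G1-ILCs against AL 7R- ILC1s.

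Genes with a similar pattern were ranked by Pearson correlation with each member over the 8 group means of log2 CPM, among 9011 genes (9012 for *Cd200r3*), as a description. *Cd200r2* was the gene most like *Cd200r1*, at 0.9845, ahead of *Adam8* (0.974), *Pdxk* (0.9739), *Adgrg3* (0.9715), *Ccdc136* (0.9644), *Sntb2* (0.9528), *St14* (0.9508) and *Slco4a1* (0.9494). Most like *Cd200r2* were *Slco4a1*, a transporter gene, at 0.9888, then *Cd200r1*, *Acoxl* (0.9606), *Lag3* (0.9575), which encodes an inhibitory receptor, *Ccdc136* (0.957), *Adam8* (0.955), *Pdxk* (0.9549) and *Cd160* (0.952). *Cd200r4* shared none of these 8-gene lists' members with *Cd200r1* or *Cd200r2*. Its list was *Mvd* (0.9605), *Gm12250* (0.9569), *Dclk2* (0.9476), the immunoproteasome genes *Psmb10* (0.9454) and *Psmb8* (0.9304), *Alkbh7* (0.9426), *Smim11* (0.9326) and *Ccdc82* (0.9303). For *Cd200r3* the list was *Smim11* (0.9428), *Tesc* (0.932), *Il12rb1* (0.9259), *Lag3* (0.9223), *Slco4a1* (0.921), *Acoxl* (0.9191), *Pitpnm2* (0.9163) and *Hnrnpul2* (0.9113). Within the family, *Cd200r4* correlated with *Cd200r1* at 0.686 and with *Cd200r2* at 0.785. The points share the libraries of each group.

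The chromosomal neighbours did not follow the receptors as a block, though *Ccdc80* went in the direction of *Cd200r1* and *Cd200r2* in the comparisons named below. Within 300 kb of a member lie 17 protein-coding genes, of which 12 are not members and 7 of these passed the filter (*Nepro*, *Gtpbp8*, *Ccdc80*, *Slc35a5*, *Atg3*, *Btla* and *Gcsam*), whereas *Boc*, *Gm609*, *Slc9c1*, *BC016579* and *Tmprss7* did not. *Nepro* and *Gtpbp8*, next to *Cd200r1* on its upstream side and overlapping each other on opposite strands, had group means of 4.44 to 10.7 and 11.7 to 28.9 CPM, and neither they nor *Btla*, an inhibitory receptor gene, passed edgeR's quasi-likelihood test in any of the 7 comparisons (0 to 2 of the 3 at an unadjusted p under 0.05 in each, and none by DESeq2). *Ccdc80*, which encodes a secreted matrix protein, was at 35.7 ± 15.3 CPM in AL 7R-, 8.04 ± 2.67 in AL 7R+ and 0.795 in BM iILC1s. FL G1-ILCs were at 30.4 ± 5.41, LPL ILC1s at 4.49 ± 5.09, SG G1-ILCs at 0.253, AL NK cells at 0.0902 and BM NK cells at 0. It was lower in AL 7R+ than in AL 7R- ILC1s (-2.13, SE 0.57, adjusted p = 0.0240 by edgeR's quasi-likelihood test) and higher in AL 7R+ ILC1s than in BM iILC1s (3.31, SE 0.78, adjusted p = 0.00688), by 4.66 without BM iILC1s replicate 3. The first of these calls was lost without AL 7R- replicate 1 (adjusted p = 0.0555) or 4 (0.0840), without AL 7R+ replicate 1 (0.122), 2 (0.0619) or 3 (0.0729), and by DESeq2 (0.0716). SG G1-ILCs had 2 counts of it, against 683 in AL 7R- ILC1s, a ratio of 123 (exact 95% interval 33.9 to 1017, adjusted p = 2.04e-05 by edgeR's quasi-likelihood test), and were also below LPL ILC1s by 17.6 times (4.70 to 149, adjusted p = 0.0121), a call lost without LPL replicate 3 (adjusted p = 0.0604) or SG replicate 1 (0.125).

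*Gcsam*, a signalling adaptor gene first known from germinal centre B cells, had a pattern of its own. It was at 33.7 ± 5.44 CPM in SG, 13.5 ± 2.12 in FL and 7.23 ± 5.09 in AL 7R- cells. AL 7R- ILC1s had 139 counts of it and AL 7R+ ILC1s 3, a ratio of 40.1 (exact 95% interval 13.5 to 197, adjusted p = 5.28e-05 by edgeR's quasi-likelihood test). SG G1-ILCs were higher than AL 7R- ILC1s by 2.23 (SE 0.53, adjusted p = 0.00164) and than LPL ILC1s by 5.87 (SE 0.67, adjusted p = 7.79e-08), opposite in direction to the receptors. *Slc35a5*, a nucleotide sugar transporter gene, was lower in LPL than in AL 7R+ ILC1s (-2.02, SE 0.29, adjusted p = 2.18e-06) and in SG G1-ILCs than in AL 7R- ILC1s (-1.38, SE 0.35, adjusted p = 0.00302). *Atg3*, an autophagy gene, was higher in LPL than in AL 7R+ ILC1s (0.82, SE 0.12, adjusted p = 2.91e-06) and lower in SG G1-ILCs than in LPL ILC1s (-0.66, SE 0.14, adjusted p = 4.67e-04), all by edgeR's quasi-likelihood test. Both *Slc35a5* calls, and the second of *Atg3*, ran in the direction of the well-covered receptors, and the first of *Atg3* ran against it.

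**Figure D4:**
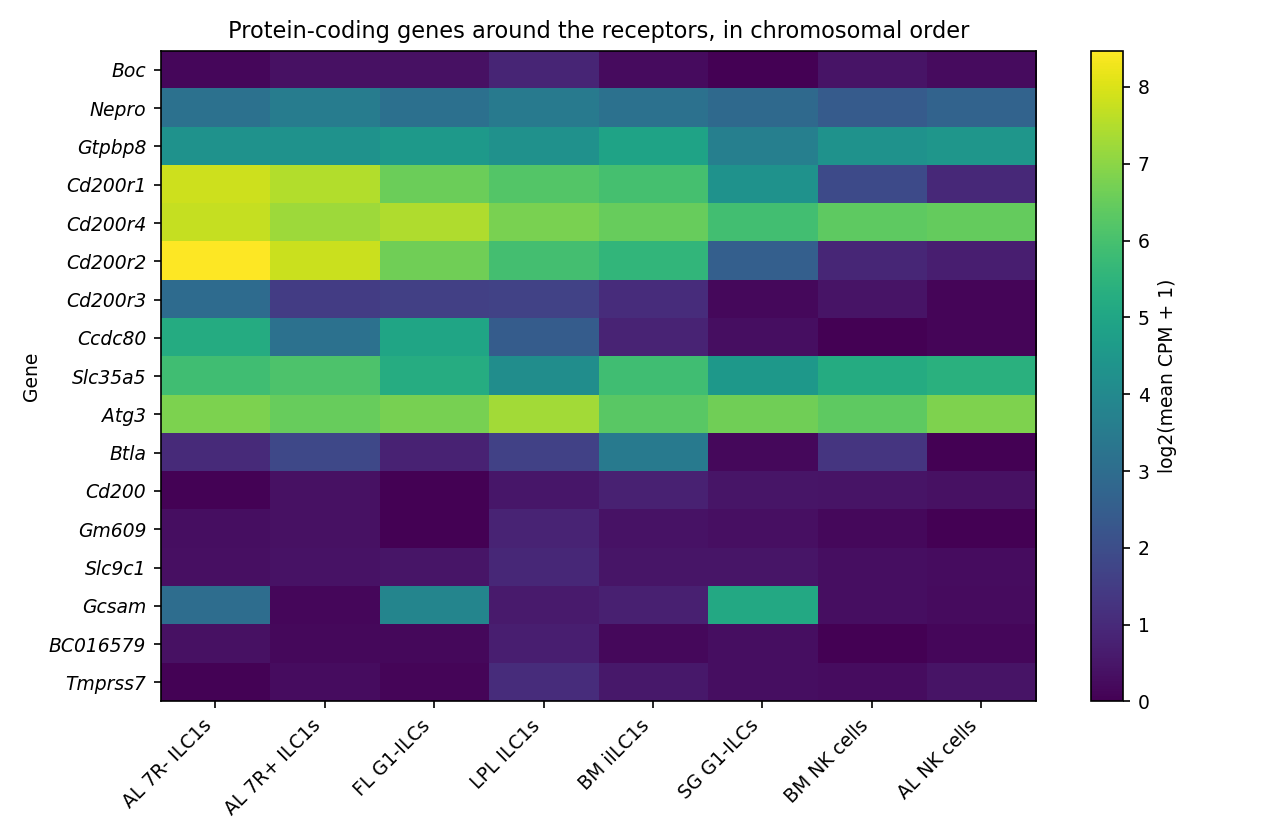
log2(mean CPM + 1) of the protein-coding genes within 300 kb of the receptors (y axis, chromosomal order) in 8 groups (x axis). Lighter colours are higher levels. *Cd200r1* and *Cd200r2* are light in adult liver ILC1s and dark in NK cells, whereas *Nepro* and *Gtpbp8* keep 4.44 to 10.7 and 11.7 to 28.9 CPM.

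The genes through which the receptors signal were taken from 3 lists, and unlike the receptors they were tested in all 11 comparisons. The lists hold 11 genes headed as adaptors and Ras GTPase activators of CD200R1, 12 Ras and MAP kinase genes and 11 activating adaptors and kinases, and all 34 passed the filter. The first list also includes the phosphatase genes *Ptpn6* and *Inpp5d* and the kinase gene *Csk*. For brevity all its genes are counted below as adaptors. *Dok2*, the main adaptor of CD200R1, was abundant in every group, with 771 ± 50.7 CPM for FL G1-ILCs, 751 ± 128 for AL NK cells, 652 ± 30.4 for AL 7R- ILC1s, 622 ± 25.4 for BM NK cells, 599 ± 35.5 for AL 7R+ ILC1s and 523 ± 18.8 for BM iILC1s. LPL ILC1s (342 ± 18.1) and SG G1-ILCs (169 ± 8.22) had less. NK cells thus had *Dok2* means within the range of the liver groups, while *Cd200r1* was below 4 CPM in them. *Dok1* ranged from 33.7 ± 1.91 CPM (BM NK cells) to 72.6 ± 7.17 (AL 7R+ ILC1s). *Rasa1* ranged from 50.4 ± 20.7 CPM (LPL ILC1s) to 160.1 ± 11.7 (AL 7R- ILC1s). *Tyrobp*, which encodes DAP12, was at 1346 ± 209 CPM in AL 7R- ILC1s, 1285 ± 221 in SG G1-ILCs and 1208 ± 125 in AL NK cells, and 559.7 to 939 as the mean of the 5 other groups. *Hcst*, which encodes the adaptor DAP10, ranged from 69.0 (FL G1-ILCs) to 160.5 ± 29.2 (AL 7R- ILC1s). SG G1-ILCs and AL NK cells, low in *Cd200r1* and *Cd200r2*, were therefore among the groups with the most *Tyrobp*. They were not without *Cd200r4*, which was at 58.7 CPM in SG G1-ILCs and 86.6 in AL NK cells.

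**Figure D5:**
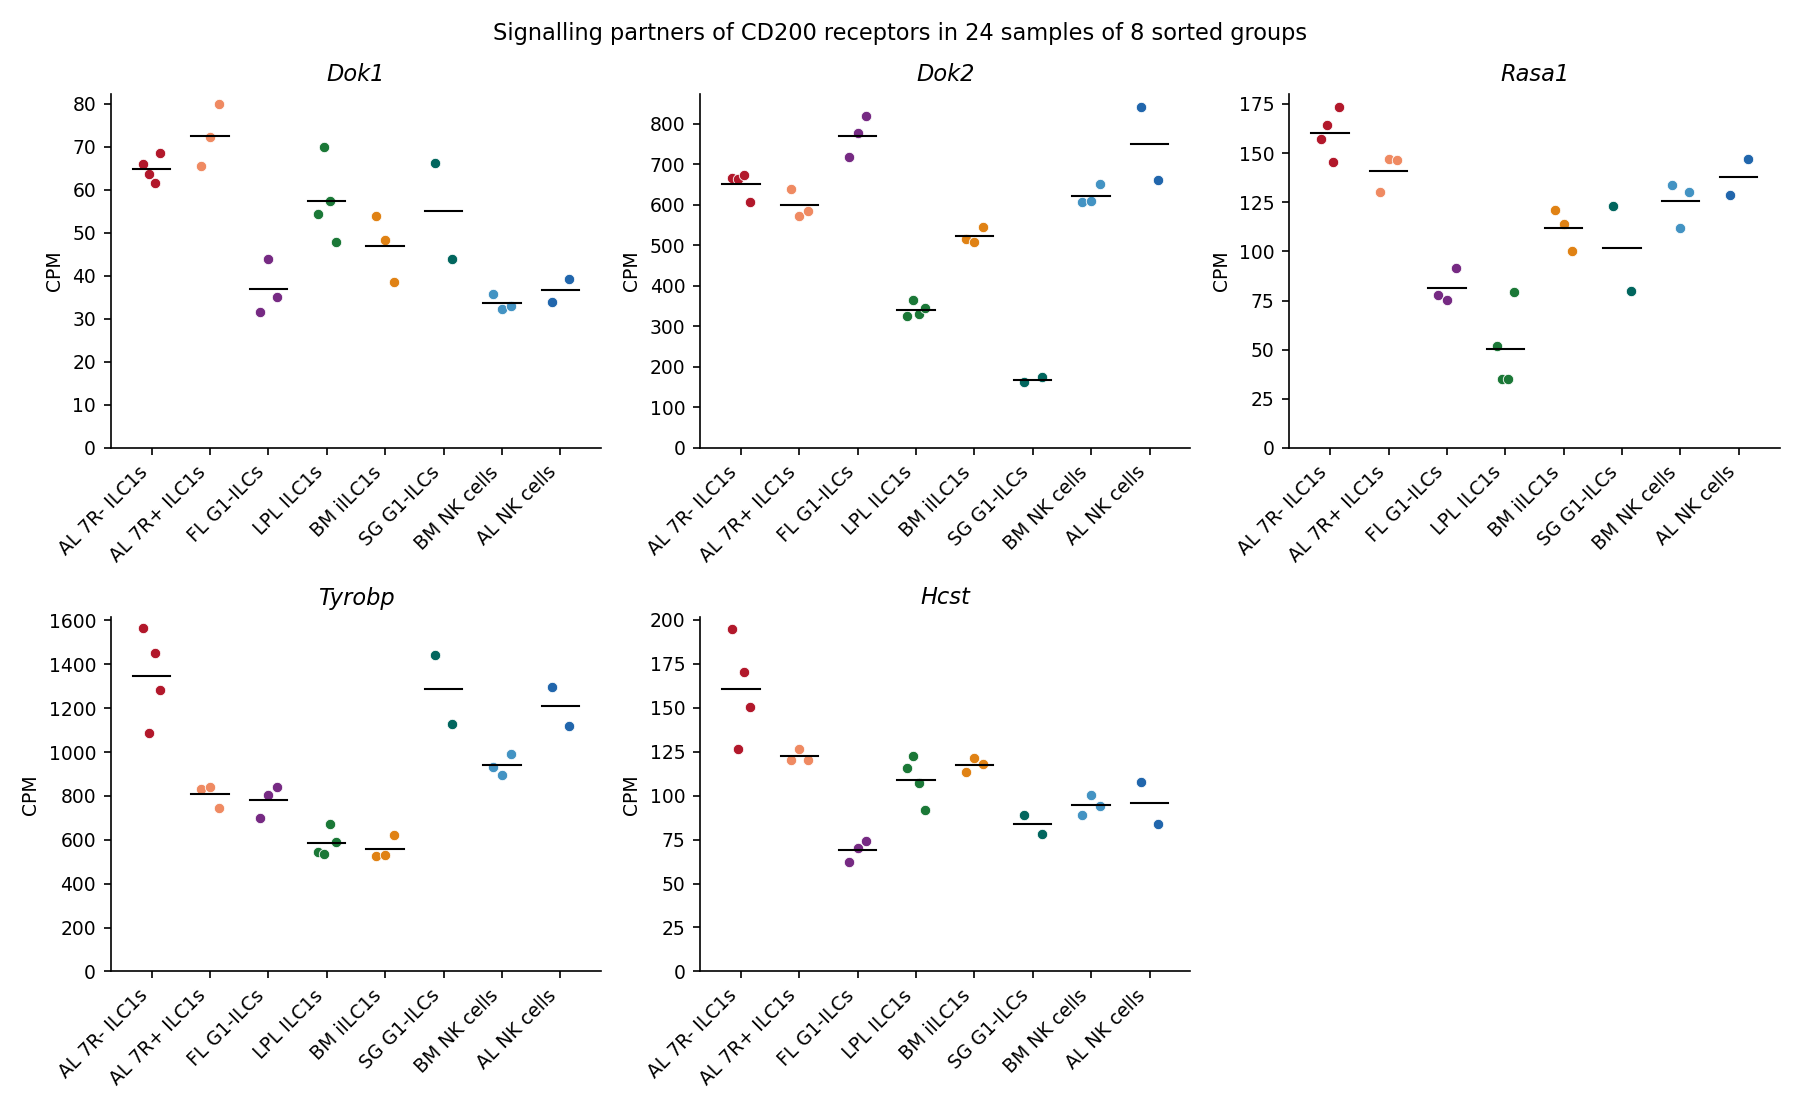
CPM of *Dok1*, *Dok2*, *Rasa1*, *Tyrobp* and *Hcst* in 24 samples of 8 groups (y axis, linear; points, samples; lines, group means). The means of *Dok2* are 751 CPM for AL NK cells, 652 for AL 7R- ILC1s and 169 for SG G1-ILCs.

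Of the 144 calls of signalling genes in the 11 comparisons, 100 held without any 1 library. Most of those are named below, with log2 fold changes from edgeR's quasi-likelihood test, the rest are given as counts, and *Dok1*, *Dok2*, *Rasa1*, *Tyrobp* and *Hcst* are named in either case. The first number of each pair counts genes higher and the second genes lower.

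Between AL 7R+ and AL 7R- ILC1s the activating list had 0 and 6 calls of 11 genes (list median -0.39), where 5.28% of all genes were called (3.06% higher and 2.22% lower). The adaptor list (-0.06) had none by edgeR's quasi-likelihood test, with 1 gene at an unadjusted p under 0.05 and 1 called by DESeq2. The Ras and MAP kinase list (-0.03) had none either, with 2 and 1. *Lat2* (-1.24), *Syk* (-0.78), *Tyrobp* (-0.74) and *Fcer1g* (-0.55) were lower in AL 7R+ ILC1s, with adjusted p from 1.33e-07 to 4.54e-04. *Lat2* encodes a scaffold of myeloid and NK cells, *Syk* the kinase that binds phosphorylated DAP12 and *Fcer1g* another adaptor of that kind. The other 2 calls (*Lat* and *Zap70*) were lost without single libraries, without AL 7R- replicate 1 or 2 or AL 7R+ replicate 1 or 3 for *Lat* (adjusted p = 0.0563 to 0.126) and without AL 7R+ replicate 2 for *Zap70* (0.0513), and *Lat* also with replicate numbers as a block (0.0590). *Hcst* (-0.39, adjusted p = 0.0775), *Dok1* (0.16, 0.728), *Dok2* (-0.12, 0.509) and *Rasa1* (-0.18, 0.738) were not called. The summed myeloid markers given above were lower in these 7R+ cells too, and their part was not tested.

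In FL G1-ILCs against AL 7R- ILC1s, 0 and 8 activating genes were called (median -0.51), 3 and 3 adaptors (-0.08) and 5 and 2 Ras and MAP kinase genes (-0.08), where 42.6% of all genes were called (22.4% higher and 20.1% lower). The 8 lower genes all held, from *Plcg1* (-2.92), *Lat* (-1.24) and *Hcst* (-1.22) through *Zap70* (-0.96) and *Tyrobp* (-0.79) to *Fcer1g* (-0.51), *Lat2* (-0.48) and *Vav1* (-0.46), with adjusted p up to 0.00218. In the adaptor list *Rasa1* (-0.98), *Nck1* (-0.95) and *Dok1* (-0.81) were lower and *Rasa3* was higher (1.67), while the higher *Dok2* (0.24, adjusted p = 0.0153) was lost without AL 7R- replicate 1 (0.0720) or 4 (0.0515) or FL replicate 4 (0.0880). *Nras* (0.36) was higher and *Braf* (-1.06) lower.

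In AL 7R+ ILC1s against BM iILC1s, 4 and 0 activating genes (median 0.30), 3 and 1 adaptors (0.29) and no Ras or MAP kinase gene (0.03) were called, the last with 2 at an unadjusted p under 0.05 and 2 by DESeq2. Of all genes 8.06% were called (3.84% higher and 4.23% lower). *Plcg1* (2.51), *Zap70* (0.73), *Tyrobp* (0.53), *Fcer1g* (0.38), *Ptpn6* (0.53) and *Rasa2* (0.52) were higher and *Rasa3* was lower (-1.86). *Dok1* (0.63, adjusted p = 0.0193) was lost without AL 7R+ replicate 3 (0.0961) or BM iILC1s replicate 3 (0.123).

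In LPL against AL 7R+ ILC1s, 1 and 6 adaptors (median -0.79), 1 and 7 activating genes (-0.46) and 5 and 2 Ras and MAP kinase genes (0.09) were called. All 6 lower genes of the adaptor list held, *Rasa1* (-1.49), *Ptpn6* (-0.98), *Csk* (-0.86), *Dok2* (-0.81), *Crkl* (-0.79) and *Inpp5d* (-0.39), with adjusted p from 2.94e-09 to 0.00164. *Ptpn6* and *Inpp5d* encode the inhibitory phosphatases SHP-1 and SHIP1, and *Csk* a kinase that restrains Src kinases. Lower activating genes were *Plcg1* (-1.72), *Syk* (-1.65), *Lat2* (-0.70), *Zap70* (-0.62), *Vav1* (-0.50), *Tyrobp* (-0.46) and *Fcer1g* (-0.29). Higher were *Rasa2* (0.54), *Grb2* (0.51), *Mapk8* (0.97) and *Map2k1* (0.48), and *Mapk14* was lower (-0.72). Of all genes 51% were called here (24.8% higher and 26.2% lower).

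In SG G1-ILCs against AL 7R- ILC1s, 3 and 4 adaptors (median -0.25), 6 and 1 Ras and MAP kinase genes (0.27) and 1 and 4 activating genes (-0.12) were called, where 32.4% of all genes were (17.8% higher and 14.6% lower). *Dok2* fell by 1.95 (-1.95, adjusted p = 1.51e-14) and *Csk* by 0.78 (-0.78), while *Dok3* (3.29) and *Inpp5d* (0.57) were higher. *Rasa1* (-0.66, adjusted p = 0.0187) was lost without SG replicate 2 (-0.38, adjusted p = 0.341). *Plcg1* (-2.37), *Hcst* (-0.94), *Lat* (-0.86) and *Zap70* (-0.47) were lower, and *Braf* (0.81) and *Mapk14* (0.48) higher. Against LPL ILC1s, 4 and 2 adaptors (0.16), 6 and 0 activating genes (0.43) and 4 and 1 Ras and MAP kinase genes (0.02) were called, where 35.5% of all genes were (18.7% higher and 16.8% lower). There *Lat2* (2.16), *Syk* (4.30-fold), *Tyrobp* (1.13), *Fcer1g* (1.08), *Zap70* (0.48), *Vav1* (0.43), *Dok3* (4.82), *Ptpn6* (1.23), *Inpp5d* (1.03), *Mapk14* (1.14), *Braf* (0.96) and *Mapk3* (0.94) were higher, and *Dok2* (-1.02) lower. *Rasa1* was also higher (adjusted p = 4.82e-04), a call lost without SG replicate 1 (0.69, adjusted p = 0.0525). Myeloid markers summed to 1535 to 1668 CPM in SG G1-ILCs, and their part in these genes was not tested.

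Between the NK cell groups only *Ptpn6* (-0.47) and *Fcer1g* (-0.42) were called, both lower in BM NK cells, and neither held without each library. Of all genes 2.58% were called (1.01% higher and 1.57% lower). No Ras or MAP kinase gene was called by edgeR or DESeq2 (3 at an unadjusted p under 0.05). *Ptpn6* was lost without any of the 3 BM NK libraries or AL NK replicate 2 (adjusted p up to 0.550), and *Fcer1g* without BM NK replicate 2 (0.0781) or AL NK replicate 1 (0.188).

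Against AL NK cells, AL 7R- ILC1s had 3 and 1 adaptors called (median 0.16), 0 and 2 Ras and MAP kinase genes (-0.21) and 6 and 1 activating genes (0.37), where 20.4% of all genes were called (9.94% higher and 10.5% lower). *Plcg1* was higher by 4.10, with 3.05 without AL NK replicate 1 and 7.60 without replicate 2. *Zap70* (1.16), *Lat* (0.95), *Hcst* (0.74) and *Rasa2* (0.56) were higher too, and *Rasa3* (-2.75), *Hras* (-1.55) and *Syk* (-0.71) lower. *Dok1* (0.83, adjusted p = 0.00213) was lost without AL NK replicate 1 (0.72, adjusted p = 0.0733). AL 7R+ ILC1s had 2 and 2 adaptors (0.07), 0 and 2 Ras and MAP kinase genes (-0.24) and 3 and 3 activating genes (0.06), where 15.6% were called (7.96% higher and 7.61% lower). *Plcg1* (4.07, or 3.02 and 7.57 without AL NK replicate 1 or 2), *Dok1* (0.99), *Rasa2* (0.87) and *Zap70* (0.83) were higher and *Rasa3* (-2.46), *Syk* (-1.49) and *Lat2* (-1.19) lower. Without AL NK replicate 1, *Tyrobp* (-0.58, adjusted p = 0.00174) went to -0.48 (adjusted p = 0.0642) and *Dok2* (-0.33, adjusted p = 0.0159) to -0.14 (adjusted p = 0.546), and *Dok2* was also lost without AL 7R+ replicate 2 (0.0644) or 3 (0.0518).

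FL G1-ILCs against AL NK cells had 2 and 3 adaptors (median 0.01), 0 and 5 Ras and MAP kinase genes (-0.43) and 1 and 5 activating genes (-0.29), where 36.4% of genes were called (19.8% higher and 16.6% lower). *Braf* (-1.27), *Nck1* (-1.09), *Rasa3* (-1.08), *Tyrobp* (-0.63) and *Syk* (-0.63) were lower. *Rasa1* (-0.76, adjusted p = 0.00666) was lost without AL NK replicate 2 (-0.66, adjusted p = 0.0720), and *Hcst* (-0.48, adjusted p = 0.0166) without FL replicate 1 (0.0706) or AL NK replicate 1 (0.340). BM iILC1s against BM NK cells had 1 and 0 adaptors (0.08), 0 and 2 Ras and MAP kinase genes (-0.12) and 2 and 3 activating genes (-0.11), where 12.1% were called (6.55% higher and 5.55% lower). *Plcg1* (2.30), *Lat* (0.68) and *Rasa2* (0.43) were higher and *Lat2* (-1.23), *Syk* (-1.03) and *Tyrobp* (-0.75) lower. An interaction term for the 5 fixed genes set the difference of BM iILC1s from BM NK cells against that of AL 7R+ ILC1s from AL NK cells. None was called, nor had any an unadjusted p under 0.05 (adjusted p = 0.437 to 0.979 by edgeR's quasi-likelihood test). AL 7R- ILC1s were not part of this test.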

How the data were processed

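Per the labels, cDNA was made from 2000 sorted cells per library with the SMART-seq HT kit, while the study's methods give a smaller number of cells. The authors deposited raw read counts per gene, made with fastp 0.23.0 (trimming), HISAT2 2.1.0 (alignment, build mm10) and featureCounts in Subread 1.6.5. Whether strand was used, and how multi-mapping reads were counted, is not given in the sources used here. Names and positions came from GENCODE vM21.

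Counts were scaled by TMM, filtered with filterByExpr (minimum count 10) and fitted over all 8 groups with the quasi-likelihood test of edgeR 4.0.16 (limma 3.58.1, R 4.3.3). Benjamini-Hochberg adjusted p under 0.05 was called. DESeq2 1.42.0 was an alternative. The procedure was tested on simulated data. Depth was 2302643 to 7995906 counts per library. AL NK cells and SG G1-ILCs have 2 libraries each and take their spread from all groups.

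The members and lists were chosen with earlier results of these data known. Named are all members, signalling genes called in a comparison or among *Dok1*, *Dok2*, *Rasa1*, *Tyrobp* and *Hcst* (calls lost without 1 library are counted only, as decided after the values were seen), the 8 genes most like each member over group means of log2 CPM (prior count 2, mean at least 3), and protein-coding genes within 300 kb. Likeness and levels have no test. A few genes that the naming rule selects are not reported here, and the list counts include them.

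Same-numbered libraries of different groups deviated together with a mean correlation of -0.00443 (-0.0822 to 0.0466), so numbers do not pair the samples.

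Lists of markers of other cells were summed in CPM per sample. The lowest and highest sums over all samples were 204 and 755 for 9 B cell markers, 571 and 1906 for 11 T cell markers, which include genes of ILCs, 124 and 989 for ILC2 and ILC3 markers (11 of 12 found), 48.6 and 234 for 9 endothelial markers, 2.40 and 81.0 for 12 parenchymal and epithelial markers, and 0.207 and 414 for 7 erythroid markers. NK cell markers (8) ran from 47.2 to 5415, ILC1 markers (8) from 67.6 to 6096 and G1-ILC markers (5) from 7106 to 12068. Basophil and myeloid markers are given in the report.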

Additional observations from a re-analysis of the deposited data

Results flagged for a closer look

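In groups of 4 samples, each member, *Dok1*, *Dok2*, *Rasa1*, *Tyrobp* and *Hcst* were searched for a sample far from the other 3 (by Dixon's criterion on the gap to the nearest sample). Of 22 sets of 4 values, 3 had such a sample, and chance marks about 1 in 20. *Dok2* was at 607 CPM in AL 7R- ILC1s replicate 4, below 663 to 673 in the other 3. *Cd200* was at 0.860 CPM (3 counts) in LPL ILC1s replicate 2, against 0.254 to 0.292 in the others. *Cd200* was also at 0.145 CPM (1 count) in AL 7R- ILC1s replicate 3, where the other 3 had 0. Both *Cd200* values rest on 3 counts or fewer.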

How the results depend on the processing

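Calls of *Cd200r1* in the 7 comparisons stayed on their side of the threshold under every alternative run, and no called member reversed. With the fit limited to the 2 groups compared, *Cd200r4* between AL 7R+ and AL 7R- ILC1s (-0.49, adjusted p = 0.0140), *Cd200r3* there (-1.85, 0.0326) and *Cd200r4* between FL G1-ILCs and AL 7R- ILC1s (-0.29, 0.0235) passed, whereas *Cd200r4* between LPL and AL 7R+ ILC1s (-0.47, 0.0567) and *Cd200r3* between SG G1-ILCs and LPL ILC1s (-3.74, 0.0542) did not, all by edgeR's quasi-likelihood test. In the 6 liver and marrow groups alone, *Cd200r4* (-0.49, 0.0171) and *Cd200r3* (-1.85, 0.0340) passed between AL 7R+ and AL 7R- ILC1s, as did *Cd200r3* by DESeq2 (-1.86, 0.0379). In the fit of 2 groups *Cd200r3* entered mainly through AL 7R- ILC1s (4 samples at the limit of the filter, against 1 of AL 7R+ ILC1s), so its call there adds no support. With no filter, *Cd200r4* passed there (-0.49, 0.0447) and *Cd200r3* was lost between FL G1-ILCs and AL 7R- ILC1s (-1.69, 0.103). A limit of 1 on the absolute log2 fold change removed *Cd200r2* between AL 7R+ and AL 7R- ILC1s (-0.70) and *Cd200r4* between AL 7R+ ILC1s and BM iILC1s (0.75), LPL and AL 7R+ ILC1s (-0.49) and SG G1-ILCs and LPL ILC1s (-0.87).

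That limit left 396 of 746 genes called between AL 7R+ and AL 7R- ILC1s, 3051 of 6013 between FL G1-ILCs and AL 7R- ILC1s, 601 of 1139 between AL 7R+ ILC1s and BM iILC1s, 4271 of 7204 between LPL and AL 7R+ ILC1s, 2684 of 4581 and 2782 of 5013 between SG G1-ILCs and AL 7R- or LPL ILC1s, 162 of 365 between the NK cell groups, 2871 of 5134, 1599 of 2884 and 1260 of 2199 between AL NK cells and FL G1-ILCs, AL 7R- or AL 7R+ ILC1s, and 1029 of 1709 between BM iILC1s and BM NK cells. Between the NK cell groups DESeq2 called 618 genes and the fit of 2 groups 657.

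Leaving out each library in turn gave log2 fold changes of *Cd200r2* from -0.81 to -0.64 and of *Cd200r4* from -0.57 to -0.41 between AL 7R+ and AL 7R- ILC1s, of *Cd200r3* from -2.02 to -1.54 between FL G1-ILCs and AL 7R- ILC1s, of *Cd200r4* from -0.73 to -0.39 and *Cd200r3* from -0.30 to 0.58 between LPL and AL 7R+ ILC1s, and of *Cd200r4* from -0.99 to -0.63 and *Cd200r3* from -6.45 to -2.82 between SG G1-ILCs and LPL ILC1s. Between the NK cell groups, *Cd200r2* ran from -0.88 to 5.20, reversed without BM NK replicate 1 (-0.88) or AL NK replicate 2 (-0.47), and *Cd200r4* from -0.24 to 0.05, reversed without BM NK replicate 2 (0.053). *Cd200r3* between LPL and AL 7R+ ILC1s reversed without LPL replicate 2 (-0.30). None of these reversed values was called. Genes called between the NK cell groups ran from 125 to 412, with 152 and 125 without AL NK replicate 1 and 2 and 243 and 168 without BM NK replicate 1 and 2. Without AL NK replicate 1 the calls against AL NK cells were 1912 in AL 7R- ILC1s (up to 2983 without other libraries) and 1387 in AL 7R+ ILC1s (up to 2318). A fit that leaves 1 library in a group assumes that it varies like the other groups.

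The replicate number as a block, which the check of pairing does not call for, changed no call of a member (*Cd200r2* between AL 7R+ and AL 7R- ILC1s, -0.69, adjusted p = 0.0207 by edgeR's quasi-likelihood test). Depth limits *Cd200* and *Cd200r3*, whose calls rest on few counts. The causes of these changes were not tested.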
